A study of Mus musculus with 6 samples.

Results

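Transcription factors that pattern the limb were followed here in slow-cycling and faster-cycling chondrocytes of the mouse hindlimb growth plate. The set was fixed by name, not by level, and held 10 of the 23159 genes of the count table: *Pitx1*, *Tbx4*, *Tbx5*, *Shox2*, *Prrx1*, *Prrx2*, *Meis1*, *Meis2*, *Msx1* and *Msx2*. RNA was sequenced from label-retaining chondrocytes (LRCs), sorted for bright histone-bound GFP, and from non-LRCs of the same sort with less GFP, giving 1 library of each group in each of 3 experiments. All cells of both groups came from Col2-Q mice at P49, which were homozygous for *Col2a1-tTA*, *TRE-H2B-GFP*, *Col2a1-creER* and *R26R-tdTomato*. Doxycycline, which stops new GFP label, was given from day 21 to day 49, and tamoxifen, which turns on tdTomato in *Col2a1-creER* cells, on days 46 and 47. Cells were taken from distal femur and proximal tibia as tdTomato-positive, CD45-negative cells, about 10000 LRCs and 50000 non-LRCs a library. The tTA and creER transgenes were driven by *Col2a1* sequences and the sort kept only cells in which *Col2a1-creER* had acted. Cells of several littermates were pooled, so that spread between single mice was not measured.

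As background, limb patterning factors give the early limb bud its identity and its axes. *Pitx1* and its target *Tbx4* are known for hindlimb identity and *Tbx5* for the start of the forelimb. *Shox2*, *Meis1* and *Meis2* act in proximal limb segments, *Prrx1* and *Prrx2* mark limb mesenchyme and are needed for skeletal growth, and *Msx1* and *Msx2* respond to BMP signals in distal and skull mesenchyme.

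Promoter windows were shown for the *Prrx* and *Msx* pairs because these are the 2 pairs of close relatives in which both genes had enough counts to be tested. Each runs 5′ to 3′ from 250 bases before to 50 bases after a RefSeq start site (GRCm38.p6), on the strand of the gene. Capitals mark 3 motifs, searched on either strand. TAATTA is a homeodomain core and reads alike on both strands. TATAAA is the TATA box. CCAAT is the CCAAT box, and reads ATTGG where it lies on the opposite strand. The windows were chr1:163313601-163313900 (reverse) for *Prrx1*, chr2:30845117-30845416 (forward) for *Prrx2*, chr5:37824536-37824835 (reverse) for *Msx1* and chr13:53472731-53473030 (reverse) for *Msx2*.
Prrx1: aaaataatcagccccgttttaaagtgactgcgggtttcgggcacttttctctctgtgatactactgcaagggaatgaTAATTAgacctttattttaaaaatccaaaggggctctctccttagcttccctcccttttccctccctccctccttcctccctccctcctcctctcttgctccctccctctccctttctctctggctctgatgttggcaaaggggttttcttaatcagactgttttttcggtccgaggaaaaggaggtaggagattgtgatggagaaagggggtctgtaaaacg
Prrx2: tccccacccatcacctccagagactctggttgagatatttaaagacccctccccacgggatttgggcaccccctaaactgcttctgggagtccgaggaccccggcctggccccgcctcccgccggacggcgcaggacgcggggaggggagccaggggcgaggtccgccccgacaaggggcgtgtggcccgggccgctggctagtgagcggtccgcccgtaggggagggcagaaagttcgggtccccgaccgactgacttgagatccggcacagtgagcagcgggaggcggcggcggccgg
Msx1: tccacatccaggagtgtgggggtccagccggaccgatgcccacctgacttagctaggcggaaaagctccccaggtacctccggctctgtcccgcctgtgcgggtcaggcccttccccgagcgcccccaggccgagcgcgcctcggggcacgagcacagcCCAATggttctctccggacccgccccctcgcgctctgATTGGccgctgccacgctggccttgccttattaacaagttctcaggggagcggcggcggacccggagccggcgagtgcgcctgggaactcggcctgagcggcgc
Msx2: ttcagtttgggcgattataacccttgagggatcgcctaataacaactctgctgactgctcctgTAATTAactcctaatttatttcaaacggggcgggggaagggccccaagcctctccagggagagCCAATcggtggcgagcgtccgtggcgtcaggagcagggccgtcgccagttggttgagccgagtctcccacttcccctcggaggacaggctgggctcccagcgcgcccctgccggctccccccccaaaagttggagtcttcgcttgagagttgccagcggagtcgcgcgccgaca

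The *Prrx* windows differed in base composition, and both *Msx* windows were rich in CpG. *Prrx1* held 6 CpG and 47.7% G and C, and *Prrx2* held 28 CpG and 70.3% G and C, beside medians of 7.0 CpG and 52.7% over 32851 RefSeq promoters of the same length. *Msx1* held 29 CpG and 70.0% G and C, and *Msx2* 22 CpG and 61.0%. TAATTA began at position -173 from the start site in *Prrx1* and at -187 in *Msx2*, and 5.29% of all promoters held this motif. CCAAT began at -91 and -54 in *Msx1* and at -124 in *Msx2*, and 37.4% of all promoters held it. None of the 3 motifs was found in the *Prrx2* window. Of the 10 limb factors, 8 had a RefSeq window. TATAAA, which 13.6% of all promoters held, was found in those of *Tbx4* at -85, *Shox2* at -203 and *Meis2* at -152, and no motif overlapped another in the 4 windows shown. These matches describe letters only.

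The libraries held between 18943789 counts (LRC of experiment 2) and 129559872 counts (LRC of experiment 1). The LRC library of experiment 2 listed 1731 of the 13728 genes tested at 0, against 4 to 365 in the other 5 libraries, so results are also given without experiment 2 where a call changed. *Col2a1*, the main cartilage collagen, was at 126000 ± 63100 CPM (counts scaled to the library total and TMM factor; SD, *n*=3) in LRCs and 134000 ± 45100 in non-LRCs. Blood and endothelial genes were low. The 8 leukocyte and erythroid markers with a row in the table summed to 4.78 to 8.26 CPM in LRCs and 2.87 to 4.16 in non-LRCs, with *Hba-a1* and *Hba-a2* at 0, and the endothelial markers to at most 0.681 CPM, with *Cdh5*, *Kdr* and *Emcn* at 0. The highest of each list were *Cd74* and *Pecam1*. In these bulk samples, fewer cells of a type and less RNA per cell cannot be told apart.

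The limb factors spanned a wide range of levels when CPM was divided by exon length, the scale on which genes can be set side by side. In LRCs *Pitx1* stood at the top with 13 ± 6.59 CPM per kilobase (SD, *n*=3), above 72.9% of the 12409 tested genes with a length when all 6 libraries were averaged. *Shox2* came next with 7.99 ± 2.74, and the ranges of the 2 genes overlapped. *Prrx2* followed with 2.64 ± 0.498, clear of *Shox2* above and of *Msx2* below.

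*Msx2*, *Msx1* and *Prrx1* averaged 1.16, 1.06 and 0.999 CPM per kilobase in LRCs and could not be ordered within their spread. *Tbx4*, *Meis1* and *Tbx5* were far lower at 0.192, 0.154 and 0.0569, and overlapped in turn. *Meis2* was lowest, at or under 0.00966 CPM per kilobase in every LRC library.

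In non-LRCs *Shox2* led with 7.35 ± 0.849 CPM per kilobase and *Pitx1* followed with 5.37 ± 2.08, again with overlapping ranges. *Msx2*, at 1.61 ± 0.909, stood above *Prrx2*, at 0.761 ± 0.167, without overlap, the reverse of their order in LRCs. *Msx1* and *Prrx1* overlapped at 0.426 and 0.421, and the remaining 4 genes were between 0.00789 and 0.062. The hindlimb gene *Pitx1* thus had counts in every library, and its downstream partner *Tbx4* was at 0 in 3 of the 6.

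**Figure D1:**
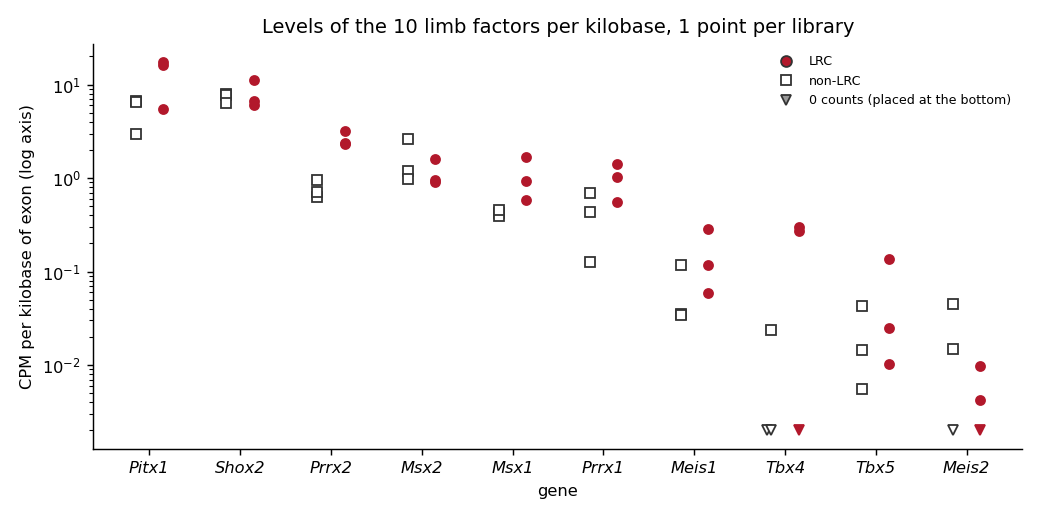
Levels of the 10 limb factors in CPM per kilobase of exon (log axis), with filled circles for the 3 LRC libraries, open squares for the 3 non-LRC libraries and triangles at the bottom for libraries with 0 counts. *Pitx1* and *Shox2* lie highest in both groups, and *Tbx4*, *Tbx5*, *Meis1* and *Meis2* lie at or below 0.301 CPM per kilobase in every library.

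LRCs were compared with non-LRCs within experiments, to ask which limb factors differ between slow-cycling and faster-cycling chondrocytes. No limb factor passed edgeR's quasi-likelihood test at an adjusted p (Benjamini-Hochberg over all genes tested) under 0.05. *Pitx1*, *Prrx1* and *Prrx2* were 2.29-fold, 2.74-fold and 3.49-fold higher in LRCs by the fit, and higher in all 3 experiments. *Shox2* differed little, and *Msx2* had its higher mean in non-LRCs. *Tbx4*, *Tbx5* and *Meis2* had too few counts to be tested.

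Of the 10 limb factors, 7 passed the filter on low counts. By edgeR 0 of the 7 were called, where 1.28% of all genes tested were (176 of 13728). At an unadjusted p under 0.05, 3 were higher in LRCs and 0 lower, and 8.89% of all genes tested were higher at that level. DESeq2 with the same term for the experiment called 3 of the 8 to which it gave an adjusted p, again *Pitx1*, *Prrx1* and *Prrx2*, all higher, beside 6.16% of all genes in that direction. All 3 LRC libraries lay above all 3 non-LRC libraries for 2 limb factors, *Prrx2* and *Msx1*, and for 8.41% of all genes tested.

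The fitted difference was positive for 6 of the 7 genes and negative for *Msx2*. In CPM, 5 of the 7 were higher in LRCs in all 3 experiments (*Pitx1*, *Prrx1*, *Prrx2*, *Meis1* and *Msx1*), and none was lower in all 3; 20.4% of all genes tested were higher in all 3. The median log2 fold change of the 7 was 1.2, and that of all genes tested was -0.1.

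**Figure D2:**
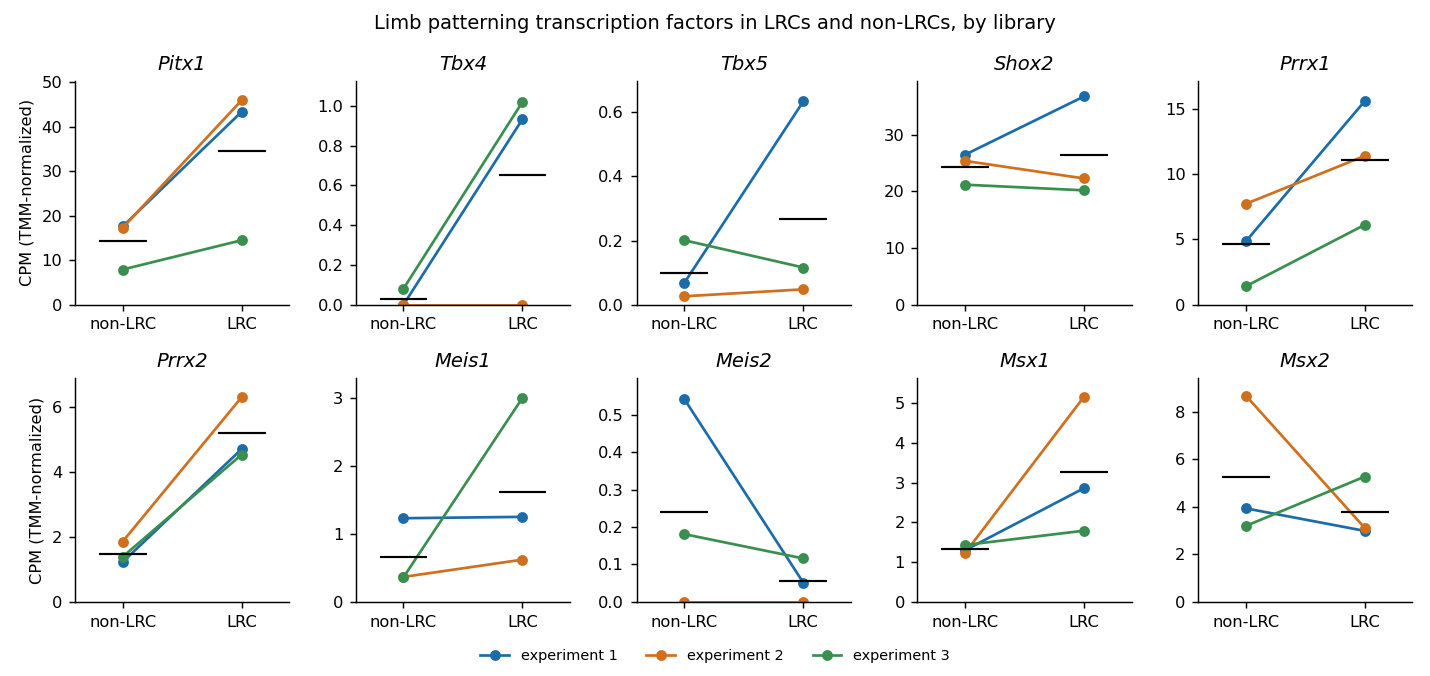
CPM of each limb factor in non-LRCs and LRCs, with a coloured line for each of the 3 experiments and a black bar for each group mean; the vertical axes start at 0 and differ between genes. The 3 lines of *Pitx1*, *Prrx1* and *Prrx2* all slope up toward LRCs, and those of *Shox2* and *Msx2* go both ways.

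*Pitx1*, the homeodomain factor of the hindlimb (chromosome 13, 55825051 to 55836192, reverse strand, GRCm38), was at 43.4, 46 and 14.5 CPM in LRCs of experiments 1, 2 and 3 and at 17.6, 17.3 and 7.91 CPM in non-LRCs. Both libraries of experiment 3 were the lowest of their group, so the groups overlapped although each LRC library exceeded its own partner. The means were 34.6 ± 17.5 and 14.3 ± 5.51 CPM (SD, *n*=3), and the log2 differences within experiments were 1.3, 1.41 and 0.87. The fitted log2 fold change was 1.2 (SE 0.22, 95% interval 0.66 to 1.74), with an edgeR adjusted p of 0.0681 (0.0016 unadjusted).

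By DESeq2 the adjusted p of *Pitx1* was 0.000145, so the call depended on the tool. Without experiment 2 the edgeR fit gave 1.09 with an adjusted p of 0.0394. Without experiment 1 the edgeR adjusted p was 0.32, and without experiment 3 it was 0.075. The gene shares 165 of its 2656 exon bases with the antisense gene Gm47071 and 108 with Gm28760, and whether the counting used strand was not given in the sources used here.

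*Tbx4* (chromosome 11, 85886422 to 85916097, forward strand), a T-box factor of hindlimb outgrowth, had 109, 0 and 44 counts in LRCs and 0, 0 and 4 in non-LRCs. Nearly all its counts thus came from 2 LRC libraries, at 0.933 and 1.02 CPM. A count of 0 allows up to 0.143 CPM (3 counts) in LRCs of experiment 2, and up to 0.029 and 0.0785 CPM in non-LRCs of experiments 1 and 2. Such limits cover counting error only. The gene failed the count filter and was not tested by edgeR, and DESeq2, which kept it, gave a log2 fold change of 4.25 (SE 2.53) with an adjusted p of 0.298.

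*Tbx5* (chromosome 5, 119832668 to 119885219, forward strand), the T-box factor of the forelimb, had 74, 1 and 5 counts in LRCs and 7, 1 and 10 in non-LRCs. The highest library was the LRC of experiment 1, at 0.634 CPM, and the other 5 lay between 0.0262 and 0.201 CPM. The groups overlapped, and the direction changed in experiment 3. edgeR did not test the gene, and DESeq2 gave a log2 fold change of 1.12 (SE 2.01) but no adjusted p.

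*Shox2* (chromosome 3, 66971727 to 66981771, reverse strand), a homeodomain factor of proximal limb cartilage, was at 36.8, 22.3 and 20.2 CPM in LRCs and 26.5, 25.4 and 21.2 CPM in non-LRCs. Only experiment 1 had the higher value in LRCs, with log2 differences of 0.47, -0.19 and -0.07. The fitted log2 fold change was 0.08 (SE 0.23), with an edgeR adjusted p of 0.887. The 95% interval, -0.48 to 0.63, bounds the difference that these libraries leave possible. *Shox2* shares 153 of its 3311 exon bases with *Rsrc1* on the opposite strand.

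*Prrx1* (chromosome 1, 163245119 to 163313710, reverse strand), a paired-related homeodomain factor of limb mesenchyme, was at 15.6, 11.4 and 6.12 CPM in LRCs and 4.85, 7.72 and 1.41 CPM in non-LRCs. Each LRC library exceeded its partner, but the LRC of experiment 3 lay below the non-LRC of experiment 2. The means were 11.1 ± 4.76 and 4.66 ± 3.16 CPM (SD, *n*=3). The log2 differences were 1.68, 0.56 and 2.09, smallest in experiment 2.

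The fit gave *Prrx1* a log2 fold change of 1.46 (SE 0.44, 95% interval 0.39 to 2.52), with an edgeR adjusted p of 0.16 (0.0155 unadjusted). The DESeq2 adjusted p was 0.018. Without experiment 2 the edgeR fit gave 1.89 with an adjusted p of 0.0204. Without experiment 1 the edgeR adjusted p was 0.569, and without experiment 3 it was 0.4985.

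*Prrx2* (chromosome 2, 30834972 to 30881251, forward strand), the close relative of *Prrx1*, was at 4.71, 6.31 and 4.54 CPM in LRCs and 1.23, 1.86 and 1.39 CPM in non-LRCs. The groups did not overlap, and the log2 differences of 1.91, 1.75 and 1.69 were the most even of the 7 genes. The means were 5.19 ± 0.977 and 1.49 ± 0.327 CPM (SD, *n*=3). The fitted log2 fold change was 1.8 (SE 0.54, 95% interval 0.49 to 3.12), with an edgeR adjusted p of 0.16 (0.0154 unadjusted).

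By DESeq2 *Prrx2* had an adjusted p of 0.00892, and without experiment 2 edgeR gave 1.82 with an adjusted p of 0.0471. Without experiment 1 the edgeR adjusted p was 0.578, and without experiment 3 it was 0.572. The ratio of *Prrx2* to *Prrx1* counts did not move in a constant direction: it was 0.302, 0.552 and 0.741 in LRCs and 0.253, 0.241 and 0.986 in non-LRCs. An exact two-sided sign-flip test over the 3 experiments gave p = 0.75 for this ratio (adjusted 0.75 over the 3 ratios compared), and the design can give no p below 0.25. The 2 genes were both higher in LRCs in every experiment.

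*Meis1* (chromosome 11, 18879817 to 19018985, reverse strand), a TALE homeodomain factor of the proximal limb, was at 1.25, 0.621 and 3 CPM in LRCs and 1.23, 0.367 and 0.362 CPM in non-LRCs. The difference came mostly from experiment 3, with log2 differences of 0.02, 0.71 and 2.94. Its log2 fold change was 1.23 (SE 1.07, 95% interval -1.39 to 3.85), with an edgeR adjusted p of 0.596, and it was 0.4 without experiment 3. It shares 1029 of its 10532 exon bases with Gm37818 and 896 with the antisense gene Gm16140.

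*Meis2* (chromosome 2, 115863064 to 116065839, reverse strand), its relative, had 6, 0 and 5 counts in LRCs and 56, 0 and 9 in non-LRCs. Most counts came from the non-LRC library of experiment 1, at 0.542 CPM. It was at 0 in both libraries of experiment 2. edgeR did not test the gene, and DESeq2 gave a log2 fold change of -1.12 (SE 2.73) but no adjusted p.

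*Msx1* (chromosome 5, 37820485 to 37824583, reverse strand), a homeodomain repressor of differentiation, was at 2.86, 5.16 and 1.79 CPM in LRCs and 1.3, 1.23 and 1.43 CPM in non-LRCs. All LRC libraries lay above all non-LRC libraries, though by little in experiment 3, and the log2 differences were 1.12, 2.04 and 0.32. The fitted log2 fold change was 1.18 (SE 0.72, 95% interval -0.58 to 2.93), with an edgeR adjusted p of 0.44. Without experiment 2, where the LRC value was highest, it was 0.74.

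*Msx2* (chromosome 13, 53466884 to 53473074, reverse strand), its relative in craniofacial and skeletal mesenchyme, was at 2.99, 3.11 and 5.28 CPM in LRCs and 3.94, 8.69 and 3.2 CPM in non-LRCs. The direction changed between experiments, with log2 differences of -0.4, -1.47 and 0.72. The fitted log2 fold change was -0.38 (SE 0.6, 95% interval -1.84 to 1.07), with an edgeR adjusted p of 0.772, and without experiment 2 it was 0.16.

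The ratio of *Msx1* to *Msx2* counts was 0.957, 1.66 and 0.339 in LRCs and 0.329, 0.142 and 0.447 in non-LRCs, higher in LRCs in experiments 1 and 2. Its mean log2 difference was 1.57 (SD 1.97) and the exact two-sided sign-flip test gave p = 0.5 (adjusted 0.75). The ratio of *Pitx1* to *Shox2* counts was 1.18, 2.07 and 0.716 in LRCs and 0.665, 0.681 and 0.374 in non-LRCs. It was higher in LRCs in all 3 experiments, by a mean log2 difference of 1.12 (SD 0.42). The exact two-sided p was 0.25, the smallest possible (adjusted 0.75). Ratios were not corrected for length, which cancels in the difference between groups.

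**Figure D3:**
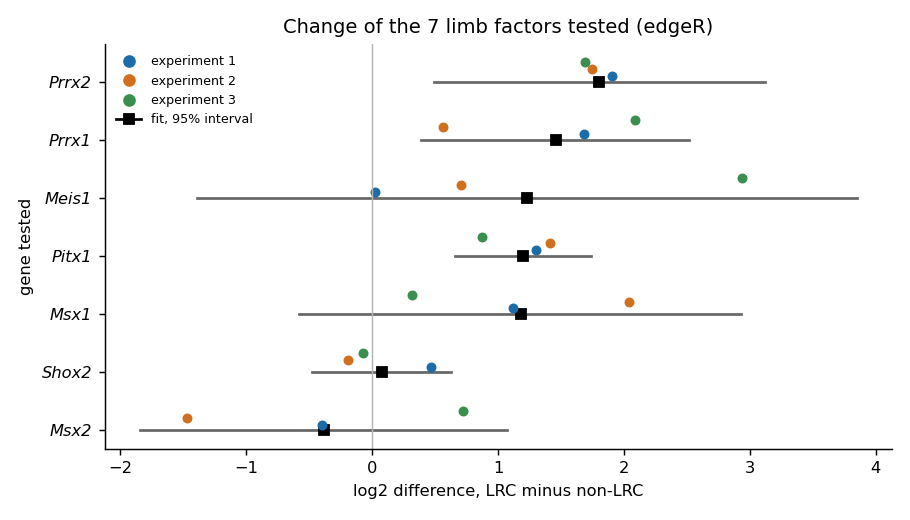
Log2 difference between LRCs and non-LRCs for the 7 limb factors tested, with a black square and line for the edgeR fit and its 95% interval and a coloured point for each experiment. The intervals of *Prrx2*, *Prrx1* and *Pitx1* lie above 0 and those of the other 4 genes include 0.

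**Figure D4:**
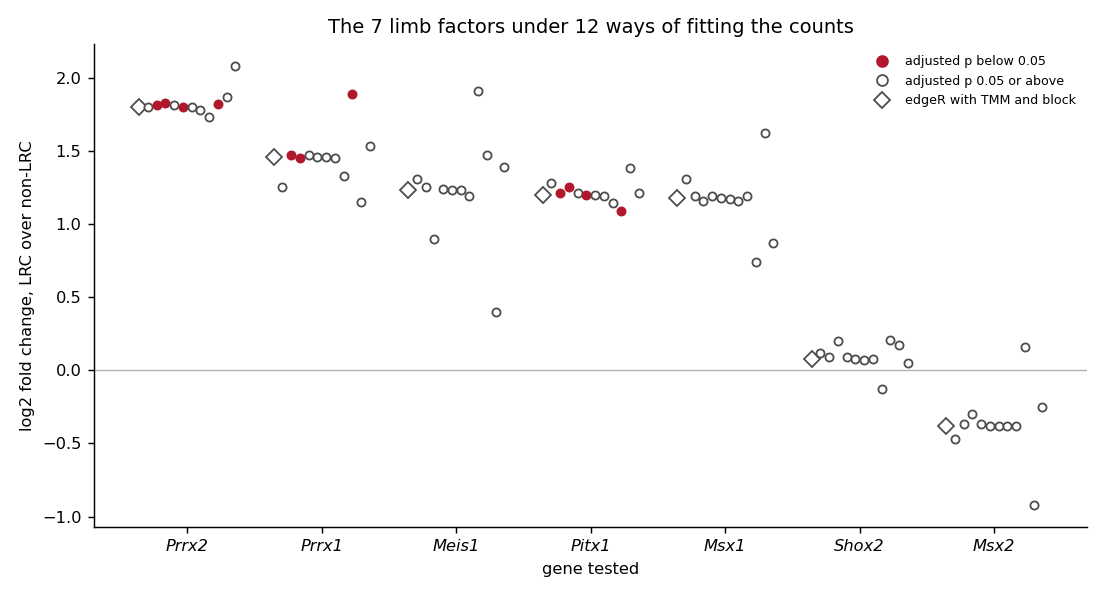
Log2 fold change of the 7 limb factors under 12 ways of fitting the counts; the diamond is the edgeR fit with TMM and a term for the experiment, and filled red circles are fits with an adjusted p below 0.05. *Pitx1*, *Prrx1* and *Prrx2* stay above 1 in every fit and are called in 4, 3 and 4 of the 11 alternatives, and the other 4 genes in 0. Over all genes tested, the main fit called 176 and the alternatives between 1 and 1692.

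The same comparison was read in 45 other limb regulators: TALE relatives of *Meis*, other T-box, *Pitx* and *Msx* genes, and further patterning factors. Of these, 28 were tested and 0 were called by edgeR, where 1.28% of all genes tested were. At an unadjusted p under 0.05, 7 were higher in LRCs and 0 lower (*Meis3*, *Tgif1*, *Tbx15*, *Tbx18*, *Etv5*, *Irx3* and *Osr2*), beside 8.89% of all genes higher at that level. DESeq2 called the same 7, beside 6.16% of all genes in that direction. Their fitted difference was positive for 16 and negative for 12, with a median log2 fold change of 0.36, below the median of the limb factors. In CPM, 11 were higher in LRCs in all 3 experiments, beside 20.4% of all genes tested, and 6 had all LRC libraries above all non-LRC libraries, beside 8.41%.

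*Tbx15*, a T-box factor of skeletal growth, was at 107, 128 and 85.9 CPM in LRCs and 57.9, 50.4 and 48.5 CPM in non-LRCs, without overlap. Its log2 fold change was 1.02 (SE 0.17), with an edgeR adjusted p of 0.0587. *Tbx18*, its close relative, was at 28.7, 17.6 and 12.6 CPM in LRCs and 7.13, 5.05 and 6.62 CPM in non-LRCs, also without overlap, with a log2 fold change of 1.58 (SE 0.33) and an edgeR adjusted p of 0.0822. *Tbx6* and *Tbx3* averaged at most 1.18 CPM in either group. Of the 10 genes in this list 4 were tested, with a median log2 fold change of 0.48.

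Among TALE genes 8 of 9 were tested, with a median of 0.36. *Meis3*, the third *Meis* gene, had all LRC libraries above all non-LRC libraries, with means of 10.6 ± 4.14 and 4.67 ± 1.79 CPM (SD, *n*=3) and a log2 fold change of 1.19 (SE 0.34; edgeR adjusted p 0.151). *Tgif1*, a repressor, had 0.62 (SE 0.17; edgeR adjusted p 0.141). *Pknox1* and *Pknox2*, which pair with *Pbx* proteins as *Meis* does, had -0.07 and -0.16, and *Pknox2* was at 0 in the LRC library of experiment 2.

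Of 26 further regulators 16 were tested, with a median log2 fold change of 0.3. *Irx3*, a factor of proximal and anterior limb, had 0.78 (SE 0.17; edgeR adjusted p 0.0895), with all LRC libraries above all non-LRC libraries. *Etv5*, an FGF-responsive ETS factor, had 0.94 (SE 0.31; edgeR adjusted p 0.188), and *Osr2*, a joint-forming zinc finger factor, had 1.41 (SE 0.4; edgeR adjusted p 0.147). *Gli3*, the Hedgehog effector that patterns the digits, had 0.03 (SE 0.22; edgeR adjusted p 0.949). *Hand2*, *Sp8* and *Sall4* were at 0 in all libraries.

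**Figure D5:**
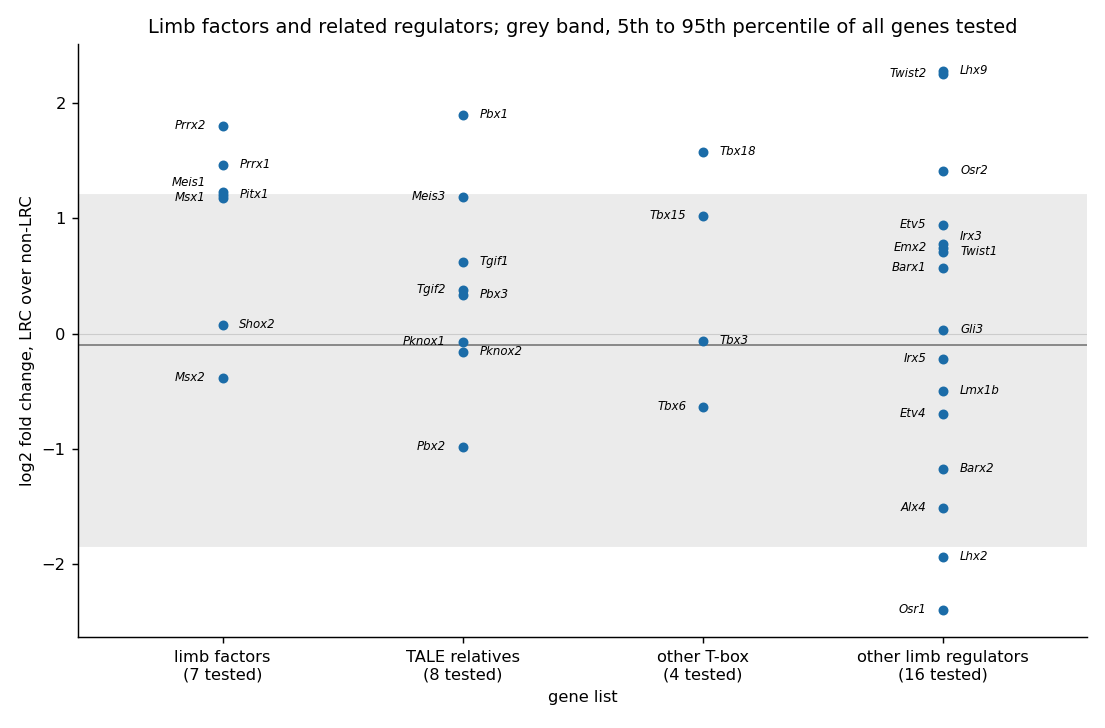
Log2 fold change of LRCs over non-LRCs for the limb factors and 3 lists of related regulators (1 point per gene tested); the grey band spans the 5th to the 95th percentile of all genes tested and the dark line is their median, -0.1. *Prrx2* at 1.8 and *Prrx1* at 1.46 lie above the band, and *Shox2* and *Msx2* lie within it.

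Markers listed for neighbouring tissues also differed between the groups. Of all genes tested, edgeR called 1.28% in either direction, and 8.89% were higher in LRCs at an unadjusted p under 0.05. At that p, 2529 of the 13728 genes passed in either direction, 1221 of them higher in LRCs. All LRC libraries lay above all non-LRC libraries for 8.41% of all genes tested. Superficial articular and synovial markers, 8 of 8 tested, summed to 1810 to 4020 CPM in LRCs and 364 to 588 CPM in non-LRCs, and edgeR called 5 higher (*Prg4*, *Cilp*, *Cilp2*, *Thbs4* and *Clu*). The paper also found *Prg4* RNA in resting-zone chondrocytes of the growth plate, at a low level. It counted tdTomato-positive cells in articular cartilage and growth plate, before and after collagenase. By those counts, essentially all such cells released from the epiphyses were growth plate chondrocytes, and counts for other tissues were not given. Perichondrial, periosteal and fibroblast markers, 6 of 10 tested and 0 called, summed to 339 to 833 and 263 to 354 CPM; their median log2 fold change was 1.44. At an unadjusted p under 0.05, 3 of the 6 were higher in LRCs: *Col3a1* with 0.78, *Pdgfra* with 2.1 and *Dpt* with 2.54, at edgeR adjusted p of 0.22, 0.0508 and 0.118. All LRC libraries lay above all non-LRC libraries for *Pdgfra* and *Dpt*. *Postn*, at 0 in all LRC libraries, was lower at that level, and *Clec3b* was at 0 throughout. Tendon and ligament markers, 5 of 6 tested, summed to 6450 to 9560 and 4820 to 7140 CPM, and 1 was called higher (*Thbs4*). *Thbs4* is in the superficial list as well. Osteoblast markers summed to 1380 to 3150 and 971 to 2170 CPM, most of it *Col1a2*. Their median log2 fold change was -0.89, with 1 of 7 called higher (*Col1a1*) and 3 lower at an unadjusted p under 0.05 (*Bglap* -1.14, *Bglap2* -1.48 and *Sp7* -1.25). Hypertrophic markers summed to 826 to 1960 and 1020 to 2970 CPM, with 1 of 7 called lower (*Panx3*). By edgeR's unadjusted p under 0.05, 4 of these 7 were lower in LRCs and 0 higher. The median log2 fold change of the 7 was -0.93. *Spp1*, the gene with the highest level in this list, had a log2 fold change of 0, so the sums hide part of the difference. Chondrocyte markers, 10 tested and 0 called, summed to 82900 to 226000 and 136000 to 237000 CPM. At an unadjusted p under 0.05, 5 of the 10 were lower in LRCs and 0 higher. The median log2 fold change of the 10 was -0.5. Muscle markers, 4 tested, summed to 6.7 to 12.1 and 13.9 to 16.2 CPM, with *Tnnt3* highest and *Myh2* at 0. The part of these cell types in the values of *Pitx1*, *Prrx1*, *Prrx2* and *Msx1* was not tested.

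Over the 6 libraries, the genes whose log2 CPM was most like that of *Prrx2* among 11926 searched were *Lef1*, a Wnt effector (Pearson's r 0.998), and *Stx6* (0.995). For *Prrx1* they were Gm12824 (0.993) and *Bach2* (0.99), and for *Pitx1* they were *Lpp* (0.991) and *Cited2* (0.988). For *Msx1* they were 1810055G02Rik (0.993) and 1810008A18Rik (0.991), and for *Meis1* *Dennd4a* (0.983) and *Mmp9* (0.964). *Msx2* was most like *Eif2ak2* (0.988) and *Mr1* (0.965), and *Shox2* most like *Phf3* (0.974) and *Enox* (0.955). Among the limb factors *Pitx1* was most like *Prrx1* (0.914) and *Prrx2* most like *Msx1* (0.854). These are descriptions over 6 points that share experiments and depth, picked as the highest of many.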

How the data were processed

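RNA of 6 libraries (3 LRC, 3 non-LRC) had been amplified with SMART-Seq v4 and sequenced single-end. According to the submitters' notes and methods, the authors aligned reads with TopHat2 2.0.13 and Bowtie2 2.2.1 to mm10 and counted unambiguous reads per gene with HTSeq, giving the deposited raw counts used here. The annotation and strand setting are not given in the sources used here. The deposited size-factor-normalized and log-transformed tables were not used, since they rest on the same counts.

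Totals were 18943789 to 129559872 counts, so that 1 count equalled 0.00856 to 0.0478 CPM. Genes were kept by filterByExpr (minimum count 10, minimum total 15), leaving 13728. edgeR 4.0.16 (R 4.3.3) fitted quasi-likelihood models with TMM factors and a term for the experiment, as the study's paired model had, with a prior count of 0.125 and Benjamini-Hochberg adjustment. SE is the absolute log2 fold change over the root of F. DESeq2 1.42.0, limma 3.58.1 (voom), other filters, another scaling, thinned counts (an alternative chosen after seeing the data) and omission of each experiment were alternatives. The edgeR, DESeq2 and voom fits were tested on simulated data, where DESeq2 made more false calls than edgeR and voom. Those counts were drawn from edgeR's own fitted means and dispersion trend, so they cannot show which tool is right for the real counts. Same-numbered libraries deviated together from their group means (r 0.197, 0.288 and 0.336 for experiments 1, 2 and 3). Between LRC and non-LRC libraries of different experiments, r was at most 0.128. The numbers, which the sample names give, were thus taken as pairs. P-values of the fits rest on differences within 3 pairs of libraries from pools of littermates. The dispersion estimates behind them draw on other genes too, so they do not measure the spread of 1 gene alone. No 2 libraries were copies: chi-square per gene was 193 to 880 over 15 pairs.

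Lengths are exon unions of GENCODE vM21 (GRCm38, the mm10 build), and 20778 of 23159 symbols matched. Named were all 10 limb factors; of related lists the genes called, or otherwise the 4 with the highest level; the 2 genes most correlated with each limb factor that had 10 counts in every library, among tested genes with a mean of at least 1 CPM (log2 CPM, prior count 2); and of marker lists the highest gene and those at 0. *Hand2*, *Sp8*, *Sall4*, *Col1a1*, *Cilp*, *Cilp2*, *Thbs4*, *Prg4*, *Pdgfra*, *Dpt*, *Postn*, *Bglap*, *Bglap2*, *Sp7* and *Panx3* were named after their values were seen. The limb factors and all lists were chosen with earlier results of these data known.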

Additional observations from a re-analysis of the deposited data

How the results depend on the processing

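Over 11 alternatives for 7 genes, 64 of 77 values kept direction and side of the threshold, 11 moved past it and 2 reversed: *Shox2* to -0.13 without experiment 1 and *Msx2* to 0.16 without experiment 2. Both reversals leave out the experiment with that gene's largest difference in the fitted direction. Against 0 limb factors called, DESeq2 and voom each called 3 (*Pitx1*, *Prrx1*, *Prrx2*) and a minimum of 10 counts in every library 2 (*Pitx1*, *Prrx2*); leaving out an experiment gave 0 to 3, with the same 3 called without experiment 2, and no replicate block, size factors, no filter, a prior count of 2 and thinned counts gave 0. The log2 fold changes of those calls were, for *Pitx1*, 1.21 (DESeq2), 1.25 (voom) and 1.2 (10 counts), for *Prrx1* 1.47 and 1.45, and for *Prrx2* 1.81, 1.83 and 1.8. The voom call of *Prrx2* lay at the threshold, with an adjusted p that rounds to 0.05. Omission of an experiment gave 1.09 to 1.38 for *Pitx1*, 1.15 to 1.89 for *Prrx1*, 1.73 to 1.87 for *Prrx2*, 0.4 to 1.91 for *Meis1*, 0.74 to 1.62 for *Msx1*, -0.92 to 0.16 for *Msx2* and -0.13 to 0.21 for *Shox2*. Without the block for the experiment, *Pitx1*, *Prrx1* and *Prrx2* had 1.28, 1.25 and 1.8, with edgeR adjusted p of 0.485, 0.594 and 0.36. Over all alternatives their adjusted p ranged from 0.000145 to 0.485, from 0.018 to 0.594 and from 0.00892 to 0.578. Of the related regulators, 0 were called by edgeR, 7 by DESeq2, 7 by voom, 3 with 10 counts in every library (*Irx3*, *Tbx15*, *Tbx18*), 1 without a filter (*Tbx15*) and 0 to 3 without an experiment (*Etv5*, *Tbx15* and *Tbx18* without experiment 2). Of all genes tested, edgeR called 176 of 13728, and 1 of 13728 without the block. DESeq2 called 1692 of the 13751 genes to which it gave an adjusted p, and voom 1361 of 13728. With 10 counts in every library 751 of 11129 were called. Without experiments 1, 2 and 3 in turn, 35 of 13805, 782 of 14568 and 223 of 14044 were called. Each setting that called a limb factor thus also called more of all genes than the main fit. The cause of the moved calls and of the reversals was not tested. *Tbx4*, *Tbx5* and *Meis2* had too few counts for the edgeR test.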
